A study of Mus musculus with 10 samples.

Results

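The choroid plexus is the secretory epithelium of the brain ventricles, and 10 genes that mark it or serve its function were followed in hippocampi of the Dp1Yey mouse model of Down syndrome: Kcne2, Clic6, Ttr, Aqp1, Slc4a5, Tmem72, Folr1, Kl, Otx2 and Enpp2. They were chosen by gene symbol, with earlier results of these arrays known, and 9 of the 10 were each carried by 1 probe set annotated to that symbol alone, among 19938 genes measured. Enpp2 was not analysed here. Kcne2 and Clic6 lie in the duplicated part of mouse chromosome 16 (Mmu16) and were present in 3 copies in Dp1Yey, whereas the other 7 measured genes lie elsewhere and were present in 2 copies in both groups. The values of those 7 genes were used to describe how much plexus RNA each array carried, so their own differences between the groups are given as a description.

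The samples were whole hippocampi, left and right, of 5 male Dp1Yey mice and 5 male control littermates, all 16 weeks old, each hybridised to its own Affymetrix Mouse Gene 1.0 ST array. In Dp1Yey, 1 Mmu16 homologue holds an extra copy of the stretch from Lipi to Zbtb21 (75540514 to 97962627, mm10), which control littermates carry in 2 copies. The labels give a C57BL/6N background and the study's methods a C57BL/6J one, which was not settled here. Each value is a log2 robust multi-array average (RMA) value, and ± gives the SD over the 5 mice of a group. The tissue held many cell types, so fewer plexus cells in a sample, whatever the reason, and less RNA per plexus cell cannot be told apart. How much plexus came with each hippocampus was not measured apart from its genes.

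The plexus of the lateral ventricle lies beside the hippocampus. Its epithelial cells secrete cerebrospinal fluid by moving ions, bicarbonate and water from blood to ventricle, and they supply the fluid with carrier proteins and vitamins. Kcne2 encodes a small accessory subunit of potassium channels, known to partner the channel protein of Kcnq1 in this epithelium, and Clic6 encodes a member of the chloride intracellular channel family. Ttr encodes transthyretin, the thyroid hormone carrier that the plexus secretes in bulk. Aqp1 encodes a water channel, Slc4a5 a sodium bicarbonate cotransporter, Folr1 the folate receptor that carries folate into the fluid, Kl the FGF23 co-receptor klotho, Otx2 a homeodomain transcription factor needed for plexus development, and Tmem72 a transmembrane protein.

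Because Otx2 is both a member and a regulator of plexus identity, the 250 bases upstream of the annotated starts were searched for its core letters TAATC, on both strands (GATTA on the other), in the RefSeq promoter table of GRCm38.p6. The counts cover promoter windows of 6 of the 10 genes, 10 windows in all, and leave out Clic6, Ttr, Folr1 and Enpp2. Of these 10 windows 3 held the letters, 1 each of Kcne2, Tmem72 and Otx2, beside 19.8% of the 32851 windows of all genes. The longer TAATCC was in 1 window, of Otx2, beside 6.25% of all windows, and it contains the shorter letters. The 3 windows are shown because they hold those letters, which stand in capitals.
Kcne2, chr16:92292139-92292388, plus strand: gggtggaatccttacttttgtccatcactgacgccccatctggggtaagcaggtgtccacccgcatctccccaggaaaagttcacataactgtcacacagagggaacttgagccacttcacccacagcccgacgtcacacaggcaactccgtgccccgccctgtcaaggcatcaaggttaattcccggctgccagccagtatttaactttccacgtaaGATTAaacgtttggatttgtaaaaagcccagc
Tmem72, chr6:116716759-116717008, minus strand: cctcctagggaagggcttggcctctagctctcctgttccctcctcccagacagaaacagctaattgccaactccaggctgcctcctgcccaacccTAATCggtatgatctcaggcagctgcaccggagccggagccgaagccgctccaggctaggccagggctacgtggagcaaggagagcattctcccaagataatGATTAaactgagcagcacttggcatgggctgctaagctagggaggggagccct
Otx2, chr14:48665110-48665359, minus strand: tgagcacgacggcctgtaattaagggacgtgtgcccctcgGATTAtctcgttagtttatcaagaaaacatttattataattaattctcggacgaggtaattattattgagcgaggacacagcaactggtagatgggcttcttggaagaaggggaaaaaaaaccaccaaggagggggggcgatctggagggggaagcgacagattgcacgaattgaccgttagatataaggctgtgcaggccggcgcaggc
The windows of Aqp1, Kl and Slc4a5, the other start of Kcne2 and the other 3 starts of Otx2 did not hold TAATC.

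All 9 genes had a lower mean in Dp1Yey hippocampi, including the 2 with an extra copy, and in all 9 the 3 highest arrays were control replicates 1, 4 and 5. Those arrays held the top 3 places in 0.757% of all genes. Control replicates 2 and 3 lay much closer to the Dp1Yey mice. Control replicates 1, 4 and 5 exceeded every Dp1Yey array in 9 of 9 genes, control replicate 2 in 5 and control replicate 3 in 1.

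Ttr showed the widest spread. Its log2 value was 10.46, 9.37, 9.20, 11.95 and 11.32 in Dp1Yey replicates 1 to 5 and 13.16, 10.50, 10.26, 13.09 and 13.11 in control replicates 1 to 5, a range of 3.96 over the 10 arrays. Dp1Yey replicates 4 and 5 stood above control replicates 2 and 3, so the groups overlapped. The mean of 10.46 ± 1.2 in Dp1Yey stood against 12.03 ± 1.5 in control mice, a difference of -1.57 (95% CI -3.08 to -0.047). Among all 19938 genes the SD of Ttr was the largest in Dp1Yey and ranked 3 in control mice.

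Among the transporters, Slc4a5 was at 6.12, 6.25, 6.12, 6.29 and 6.26 in Dp1Yey and at 7.17, 6.36, 6.18, 7.02 and 6.91 in control replicates 1 to 5. Control replicate 3 lay inside the Dp1Yey range and the other 4 above it, and the mean difference was -0.52 (95% CI -0.87 to -0.17). Aqp1 was nearly level across the Dp1Yey mice, at 6.22, 6.19, 6.25, 6.25 and 6.24, and stood at 6.90, 6.52, 6.27, 6.76 and 6.63 in control replicates 1 to 5. It was the 1 gene of the 9 whose groups did not overlap, a lower separation also seen in 2.46% of all genes, and its difference was -0.39 (95% CI -0.59 to -0.18). Whether the level Dp1Yey values are a floor of the Aqp1 probe set was not tested. Folr1, which supplies folate, was at 6.84, 6.97, 6.86, 7.10 and 7.05 in Dp1Yey and at 8.16, 7.14, 6.94, 7.79 and 7.88 in control replicates 1 to 5, a difference of -0.62 (95% CI -1.04 to -0.19).

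Otx2, the transcription factor, stood at 6.32, 6.13, 6.26, 6.48 and 6.57 in Dp1Yey and at 7.77, 6.28, 6.32, 7.15 and 7.09 in control replicates 1 to 5. Control replicates 2 and 3 lay within the Dp1Yey range. The difference of Otx2 was -0.57 (95% CI -1.09 to -0.052), and without control replicate 1 it was -0.36 (-0.75 to 0.038), an interval that holds 0. Klotho (Kl), also made by other cells of the brain, was at 8.16, 8.16, 7.92, 8.28 and 8.22 in Dp1Yey and at 9.37, 8.32, 8.12, 8.86 and 8.99 in control replicates 1 to 5, with a difference of -0.58 (-1.0 to -0.16). Tmem72 was at 5.76, 5.56, 5.76, 5.94 and 5.93 in Dp1Yey and at 7.07, 5.91, 5.86, 6.64 and 7.00 in control replicates 1 to 5, with a difference of -0.71 (-1.18 to -0.23). For both genes control replicate 1 was the highest array. Control replicate 3 lay within the Dp1Yey range in both, and control replicate 2 in Tmem72.

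**Figure D1:**
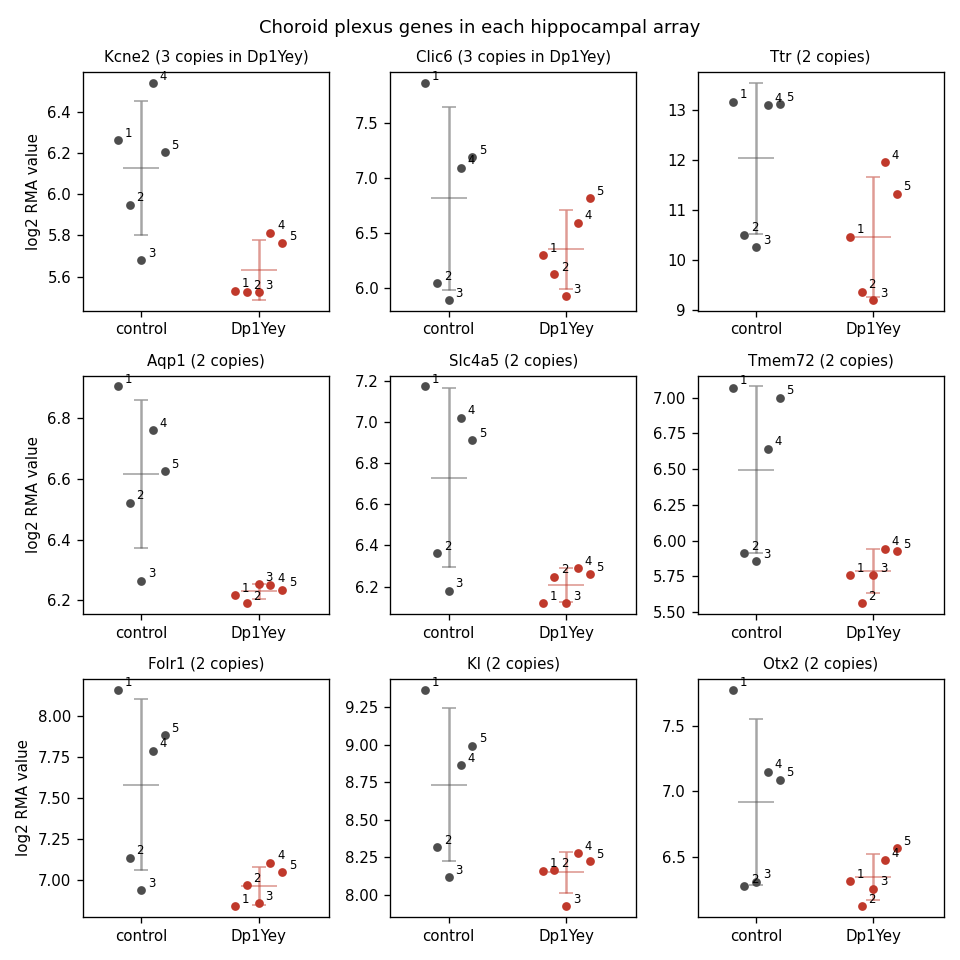
Log2 RMA value of each of the 9 measured genes in 5 control (grey) and 5 Dp1Yey (red) arrays, numbered by replicate, with the group mean and SD as bars, on a separate vertical scale per gene. Control replicates 1, 4 and 5 are the 3 highest arrays in every panel, and the groups are separated in Aqp1 alone.

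Kcne2 (Entrez 246133, Mmu16 92292389 to 92298133) was dim throughout. Its log2 value was 5.53, 5.52, 5.52, 5.81 and 5.76 in Dp1Yey and 6.26, 5.95, 5.68, 6.54 and 6.20 in control replicates 1 to 5. The 3 lowest Dp1Yey arrays were close to a background level of 5.44, below which 90% of 1027 olfactory receptor genes had their mean. Control replicate 3 lay within the Dp1Yey range. Tmem72, at 5.56 to 5.94 in Dp1Yey, lay about as near to background. The Kcne2 mean of 5.63 ± 0.14 in Dp1Yey stood against 6.13 ± 0.33 in control mice, a difference of -0.50 (SE 0.13, 95% CI -0.78 to -0.21, adjusted p = 0.0958 over all genes, limma). This is a ratio of 0.709 (95% CI 0.581 to 0.866). The log2 interval lies below 0 and below 0.58, the log2 of the 1.5-fold dose of 3 copies over 2.

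Clic6 (Entrez 209195, Mmu16 92498147 to 92541241) varied more. Its log2 value was 6.30, 6.13, 5.92, 6.59 and 6.81 in Dp1Yey and 7.86, 6.04, 5.89, 7.09 and 7.19 in control replicates 1 to 5. Control replicate 2 was within the Dp1Yey range, control replicate 3 just below it and the other 3 controls above it. The mean of 6.35 ± 0.36 in Dp1Yey stood against 6.81 ± 0.83 in control mice, a difference of -0.46 (SE 0.33, 95% CI -1.18 to 0.25, adjusted p = 0.434, limma), an interval that holds 0 but not 0.58.

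At an adjusted p under 0.05, limma called 159 of 19938 genes, or 0.797%, with 137 higher and 22 lower (0.687% and 0.11%), and called 0 of the 9 plexus genes. At an unadjusted p under 0.05, 8 of the 9 were lower, beside 10.8% of all genes, and Clic6 was the exception. The 9 genes moved together over these arrays, so such counts do not hold 9 separate observations. A rank statistic of the kind the study used called 689 genes, 198 of them lower (0.993% of all genes) and 491 higher (2.46%), and 7 of the 9 were among the lower ones: Kcne2, Ttr, Aqp1, Slc4a5, Tmem72, Folr1 and Kl. Without control replicate 3, the lowest control in each of these genes, limma called Kcne2 (adjusted p = 0.0257), Aqp1 (0.00643), Slc4a5 (0.0419) and Folr1 (0.0483) lower. Each of them passed in only 1 of the 10 fits that left out 1 array, with adjusted p up to 0.268 for Folr1.

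Of the 97 duplicated-interval genes above background, Kcne2 had the lowest difference and Clic6 the next lowest, against a median of 0.32 and a highest value of 0.87. Of these 97 genes, 19.6% had a lower mean in Dp1Yey, and of all 143 measured interval genes 41.3% passed as higher. On either side of Kcne2, the mitochondrial ribosome gene Mrps6 rose by 0.51 (adjusted p = 0.0324, limma), with 9.78, 9.56, 9.63, 9.86 and 9.38 in Dp1Yey and 9.16, 8.83, 9.22, 9.22 and 9.23 in control replicates 1 to 5. Smim11 rose by 0.30 (adjusted p = 0.0322), and Rcan1, a calcineurin inhibitor between Kcne2 and Clic6, rose by 0.49 (adjusted p = 0.000314). The groups did not overlap in any of these 3 genes, and the share of all genes with such a higher separation is not given here. Slc5a3, a myo-inositol transporter of plexus and other cells, differed by 0.19 and did not pass (adjusted p = 0.444), with groups that overlapped. Fam243 and 2410124H12Rik were below background, and Runx1 (0.030) and Setd4 (-0.10), beyond Clic6, did not pass (adjusted p = 0.73 and 0.392, limma). Mrps6 and Slc5a3 overlap in position, so their probe sets may share transcripts.

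The next question was how Kcne2 and Clic6 compared at equal plexus content. A plexus score was taken as the mean log2 value of the 7 genes in 2 copies. It was 7.13, 6.95, 6.91, 7.47 and 7.37 in Dp1Yey replicates 1 to 5 and 8.52, 7.29, 7.13, 8.19 and 8.23 in control replicates 1 to 5, or 7.16 ± 0.25 against 7.87 ± 0.62. Control replicates 2 and 3 had scores inside the Dp1Yey range and the other 3 controls had scores above it.

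Arrays of like score differed in Clic6. Dp1Yey replicate 1 and control replicate 3 shared a score of 7.13, and Clic6 was at 6.30 in the former and 5.89 in the latter. Control replicate 2 had a score of 7.29 and a Clic6 value of 6.04, whereas Dp1Yey replicates 4 and 5, with scores of 7.47 and 7.37, were at 6.59 and 6.81. Kcne2 went the other way in the same arrays. It was at 5.53 in Dp1Yey replicate 1 and 5.68 in control replicate 3, and at 5.81 and 5.76 in Dp1Yey replicates 4 and 5 against 5.95 in control replicate 2. A like score did not mean like values of every score gene. Dp1Yey replicates 4 and 5 were at 11.95 and 11.32 in Ttr against 10.50 in control replicate 2, but at 6.25 and 6.24 in Aqp1 against 6.52.

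With the score as a covariate in a limma fit over all 19931 genes outside it, the sign of the Clic6 difference turned. Clic6 was 0.47 higher in Dp1Yey (SE 0.10, 95% CI 0.25 to 0.69), which is 1.39-fold (1.19 to 1.62), and the interval holds 0.58, the value of 1.5-fold. The adjusted p was 0.113, so Clic6 did not pass over all genes, of which 0.291% did, 0.261% as higher. Of the 97 interval genes above background, 38.1% passed as higher in this fit. Clic6 ranked 71 from the lowest of the 97 interval genes, whose median was 0.34. Its size rested on the score. With Ttr alone as the score it was 0.20 (95% CI -0.20 to 0.60), and with 27 further plexus genes as the score it was 0.12 (-0.13 to 0.37). Both intervals hold 0, and that of the 27 genes excludes 0.58. Over 25 log2 settings, with other scores and with single arrays left out, the Clic6 difference ran from 0.12 to 0.57. The interval lay above 0 in 23 of the 25 and held 0.58 in 24. Without control replicate 3, Clic6 passed (0.53, adjusted p = 0.0422). With the 7-gene score and all 10 arrays, some plexus genes in 2 copies, from the list described below, rose as far as Clic6. Ecrg4 was 0.48 higher (95% CI 0.27 to 0.70) and Kcnj13 0.68 higher (0.18 to 1.17), without passing over all genes. Others of that list were lower, among them Htr2c (-0.25) and Cdh3 (-0.16). A rise at equal score was thus not particular to genes in 3 copies.

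The Kcne2 difference at equal score was -0.17 (SE 0.097, 95% CI -0.38 to 0.043, adjusted p = 0.386, limma). It ranked 3 from the lowest of the 97 interval genes, 17.5% of which lay below 0. This interval holds 0 and excludes 0.58. Over the 25 log2 settings tried, including other scores and each array left out, the difference ran from -0.30 to -0.094 and no interval reached 0.58, the highest bound being 0.16. In 5 of the 25 settings the interval lay wholly below 0, among them Ttr alone as the score, at -0.24 (95% CI -0.43 to -0.053), and the 27 further plexus genes as the score, at -0.30 (-0.51 to -0.093), and in none did Kcne2 pass over all genes. How far values close to background understate a fold in Kcne2 was not tested.

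The slope of each gene on the score was also taken within each group. Clic6 changed by 1.32 log2 units per unit of score among the 5 Dp1Yey mice and by 1.33 among the 5 control mice, and Kcne2 by 0.55 and 0.45. In the joint fit the slope was 1.33 for Clic6 (SE 0.092, adjusted p = 0.000265, limma) and 0.46 for Kcne2 (SE 0.088, adjusted p = 0.212). A slope passed in 0.0702% of genes, 14 in all.

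**Figure D2:**
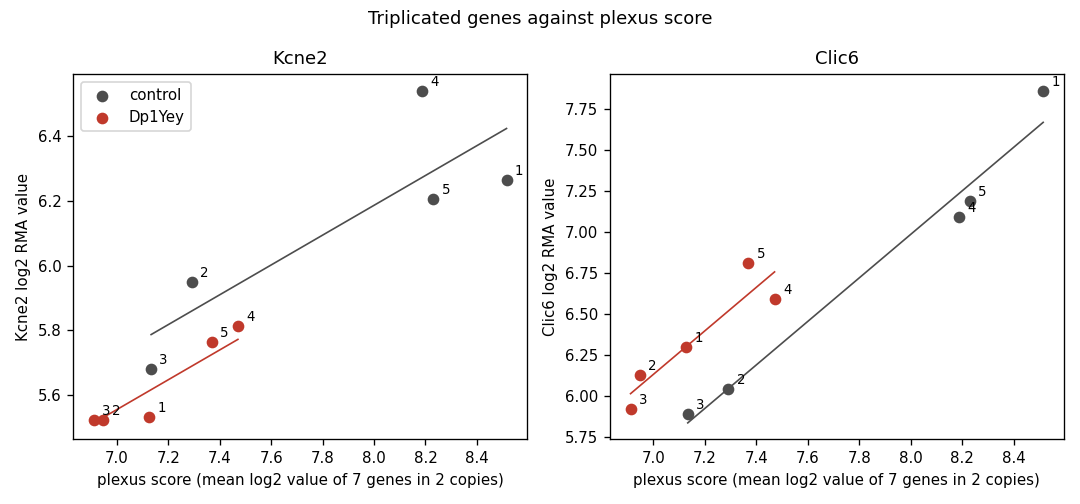
Log2 RMA value of Kcne2 (left) and Clic6 (right) against the plexus score, the mean log2 value of 7 genes in 2 copies, for 5 control (grey) and 5 Dp1Yey (red) arrays numbered by replicate. The parallel lines are the joint fit, with Dp1Yey 0.47 above control in Clic6 and 0.17 below it in Kcne2.

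**Figure D3:**
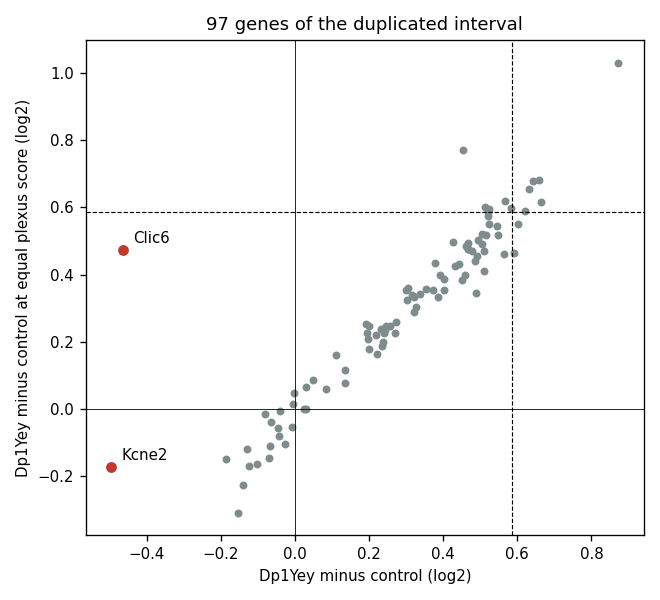
Dp1Yey minus control on the log2 scale for 97 genes of the duplicated interval, without (horizontal) and with (vertical) the plexus score as a covariate. Dashed lines mark the log2 of 1.5, and Kcne2 and Clic6 (red) are the 2 genes farthest left, Clic6 moving to 0.47 and Kcne2 to -0.17 on the vertical axis.

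A separate list of 34 plexus genes, none of them among the 10, was read beside them. Of its 30 measured members, 25 had a lower mean in Dp1Yey, beside 57.9% of all genes, and the median difference was -0.20, beside -0.015 over all genes. Limma called 0 of the 30, and 12 reached an unadjusted p under 0.05, all of them lower, beside 10.8% of all genes. The rank statistic called 3 lower, beside 0.993% of all genes: the P-cadherin gene Cdh3, the serotonin receptor gene Htr2c and the collagen gene Col9a3. Control replicates 1, 4 and 5 were the 3 highest arrays in 15 of the 30 genes, beside 0.757% of all genes. The mean over the 30 was between 6.96 and 7.20 in Dp1Yey mice and between 6.95 and 7.69 in control mice, the lowest controls being replicates 2 and 3. A slope on the plexus score passed in 8 of the 30, beside 0.0702% of all genes outside the score.

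Kcnj13, an inward rectifier potassium channel of the plexus apical membrane, spread most in this list. It was at 8.07, 6.78, 7.65, 8.78 and 8.37 in Dp1Yey and at 10.34, 7.47, 7.19, 10.02 and 10.29 in control replicates 1 to 5, a difference of -1.13 (95% CI -2.53 to 0.26, adjusted p = 0.338, limma). The BMP antagonist gene Sostdc1 was at 7.30, 7.43, 7.08, 7.71 and 7.32 in Dp1Yey and at 9.0, 7.17, 6.96, 8.35 and 8.65 in control replicates 1 to 5. In both genes control replicates 2 and 3 lay within or below the Dp1Yey range. The smallest unadjusted p-values of the list belonged to Cdh3 (-0.23, adjusted p = 0.0544), Htr2c (-0.49, 0.0678), Col9a3 (-0.26, 0.119) and the retinol dehydrogenase gene Rdh5 (-0.34, 0.124), without passing. Other members described by rule were Tcn2, a vitamin B12 carrier (0.12), the thyroid hormone transporter gene Slco1c1 (-0.10), the nucleoside transporter gene Slc29a4 (-0.13) and the ion channel gene Trpm3 (-0.21), which also did not pass (adjusted p 0.176 to 0.408, limma).

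Leaving out the members themselves, the 10 genes above background whose deviations from their group means followed the score most closely, over 10 arrays, were Ecrg4, Abca4, Kcnj13, Lbp, Sostdc1, Col8a1, F5, Ace, Spint2 and Sulf1, with Pearson correlations of 0.953 to 0.972. Of these, 7 were in the list of further plexus genes, Ecrg4 under an older symbol, and Abca4, Spint2 and Sulf1 were not. Ecrg4, which encodes a secreted peptide precursor, was at 6.82, 6.52, 6.53, 7.05 and 6.78 in Dp1Yey and at 7.86, 6.17, 6.35, 7.46 and 7.53 in control replicates 1 to 5. Computed in the same way, and leaving each 2-copy gene out of its own score, the correlation was 0.977 for Clic6, 0.859 for Kcne2 and 0.846 to 0.957 for the 7 genes. The arrays share a normalisation and the 10 points are few, so these values describe these arrays.

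Partners and relatives of the members were read next. Of 11 measured partners and relatives of Kcne2, 9 had a lower mean in Dp1Yey, beside 57.9% of all genes. Their median difference was -0.032, and 0 passed by limma, at an unadjusted p under 0.05 or by the rank statistic. Kcnq1, the pore subunit that Kcne2 joins in the plexus, averaged 6.66 ± 0.085 in Dp1Yey against 6.69 ± 0.053 in control mice, and the triplicated relative Kcne1 5.47 ± 0.05 in Dp1Yey against 5.47 ± 0.029 in control mice. Of the 4 other chloride intracellular channel genes, Clic4 was 0.13 higher, with an adjusted p of 0.196, and 0 passed by limma or the rank statistic. Among 12 genes of ion and fluid transport used by the plexus and by other brain cells, 9 had a lower mean, beside 57.9% of all genes. Limma called 0 of them, and 5 reached an unadjusted p under 0.05, all lower, beside 10.8% of all genes. The rank statistic called 1 lower, beside 0.993% of all genes. That gene was the cation channel gene Trpv4 (-0.37, adjusted p = 0.0549, limma). The others of these 5 were Slc4a10 (-0.17), Atp1b2 (-0.098), Car2 (-0.12) and Slc12a4 (-0.13). Their correlations with the plexus score were -0.19, -0.23, -0.15 and 0.099. In Slc4a10 the groups did not overlap, a lower separation seen in 2.46% of all genes. The sodium pump subunit gene Atp1b1, abundant in neurons, averaged 13.30 ± 0.0095 in Dp1Yey against 13.30 ± 0.04 in control mice. The mean over these 12 genes was also highest in control replicates 1, 5 and 4, at 9.61, 9.53 and 9.49, against 9.35 to 9.46 in the other 7 arrays. Slc4a2, Car12 and Car14 are also in the list of further plexus genes, so these lists are not separate, and Slc5a3 is triplicated. The median correlation of the 12 genes with the plexus score was 0.15.

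Markers of neighbouring tissues were followed over the same arrays. The mean of 10 ependymal genes, which mark the ciliated ventricle lining, was between 6.50 and 6.68 in Dp1Yey and 6.39 and 6.91 in control mice, with control replicate 1 highest and controls 4 and 5 near replicates 2 and 3. Limma called 0 of them, 0 were past an unadjusted p of 0.05 in either direction, and the rank statistic called 2 higher, Rarres2 and Cfap126, beside 2.46% of all genes. The mean of 10 meningeal and fibroblast genes ran from 7.76 to 8.35 in Dp1Yey and from 7.77 to 8.15 in control mice, highest in Dp1Yey replicate 4. Limma called 0 of them, and 4 reached an unadjusted p under 0.05 (3 higher, 1 lower, beside 8.75% and 10.8% of all genes). The rank statistic called 3 higher, beside 2.46% of all genes: the prostaglandin D synthase gene Ptgds (0.42), the retinoic acid synthesis gene Aldh1a2 (0.38) and the GABA transporter gene Slc6a13 (0.36). At equal plexus score these were 0.65, 0.56 and 0.58 higher, and of the 3 only Aldh1a2 passed (adjusted p = 0.0478, limma). Igf2 of the meninges, plexus stroma and vessels averaged 9.88 ± 0.28 in Dp1Yey against 9.78 ± 0.31 in control mice.

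Endothelial (7 genes), oligodendrocyte (7 genes) and hippocampal neuron (6 genes) lists had median differences of 0.048, 0.087 and -0.0091. Limma called 0 genes of these 3 lists. At an unadjusted p under 0.05 the blood-brain barrier transporter gene Slco1a4 and the neuronal genes Wfs1 and Neurod6 were higher, 3 of 20 genes beside 8.75% of all genes. The rank statistic called Slco1a4, Opalin and Wfs1 higher, 3 of 20 genes beside 2.46% of all genes. Camk2a, a defining kinase of forebrain excitatory neurons, averaged 13.46 ± 0.015 in Dp1Yey against 13.48 ± 0.022 in control mice, and the dentate granule cell factor gene Prox1 9.66 ± 0.035 in Dp1Yey against 9.73 ± 0.11 in control mice, so both hippocampal markers were well above background in both groups. The part of these cell types in the plexus gene differences was not tested.

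**Figure D4:**
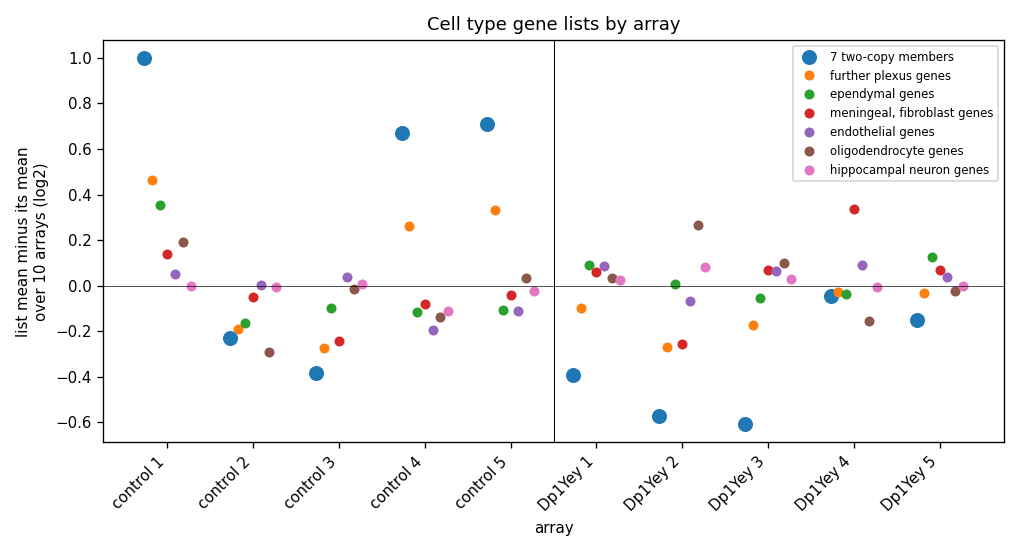
Mean log2 value of 7 gene lists in each array, minus the mean of that list over the 10 arrays, for 5 control and 5 Dp1Yey arrays. The 7 plexus genes in 2 copies reach 0.997, 0.67 and 0.71 in control replicates 1, 4 and 5, the further plexus genes are highest in the same arrays, and these 3 arrays are not the 3 highest in the ependymal, meningeal, endothelial, oligodendrocyte or neuron list. The ion and fluid transport list is not drawn.

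Facts of the whole series bear on these values in 1 respect. The interquartile range of the arrays was 3.51 ± 0.027 for Dp1Yey against 3.46 ± 0.042 for control mice, and control replicate 2 had the narrowest, at 3.40. With that range as a covariate Kcne2 was at -0.44 and Clic6 at -0.42, and at equal plexus score they were at -0.094 and 0.57 (adjusted p = 0.881 and 0.173, limma). The median difference of all genes was -0.015 in the deposited values and 0.032 after centring each array on its median, and no plexus gene changed sign with either scaling.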

How the data were processed

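Hippocampal RNA of 5 Dp1Yey and 5 control mice was measured on 10 arrays. The values deposited by the authors are on the log2 scale, after background correction, quantile normalisation and summarising by RMA. RMA, limma and mm10 stand in the submitters' processing notes, which do not say which arrays were normalised together. Of 35556 probe sets, 21789 carried 1 gene symbol, 1621 several, and 12146 were unnamed here. The brightest probe set represented each of 19938 genes, and 19855 were placed through Entrez numbers on GRCm38.p6, the assembly known as mm10.

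Groups were compared with limma 3.58.1 in R 4.3.3 (lmFit, eBayes, two-sided, Benjamini-Hochberg over all genes, called under 0.05). The plexus score was the mean of 7 genes, since Enpp2, the eighth gene planned for it, was not analysed here. The rank statistic ranked fold changes of 25 array pairs, trimmed by 0.25 at each end, with tails at 0.025 and 0.975, in place of the study's own software. The members and lists were chosen with earlier results of these data known. Named genes were the members, the 2 nearest measured genes on each side of Kcne2 and Clic6, up to 4 genes of smallest p of each list, the 4 further plexus genes of highest mean over all arrays (a rule of choice, since probe sets of different genes cannot be ranked by level) and the 10 genes most like the score. Kcnj13, Sostdc1, Kcnq1, Kcne1, Atp1b1, Slc12a4, Igf2, Camk2a and Prox1 were described after their values were seen. One listed symbol was updated (Ecrg4). Arrays give no read depth, and their number limits the precision. The code was tested on simulated data.

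The alternatives were a new quantile normalisation, median centring, a background filter, the mean of all probe sets, array weights, a robust prior with an intensity trend, the interquartile range as a covariate, blocking on replicate number, other plexus scores and leaving out each array. A squared score and a linear scale were added after seeing the data.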

Additional observations from a re-analysis of the deposited data

Results flagged for a closer look

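Of 40 sets of 5 arrays looked at for a single array apart from the others (by Dixon's ratio of the gap to the range), 2 stood out, and about 1 in 20 would by chance. Both were control replicate 2. In Mrps6 it was the lowest control at 8.83, against 9.16 to 9.23 in the others (ratio 0.812). In Setd4 it was the highest control at 6.45, against 6.05 to 6.17 in the others (ratio 0.711). None of the 9 plexus genes, nor the plexus score, had such an array.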

How the results depend on the processing

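The count of called genes, 159, was 308 with median centring (95.5% of them higher, against 86.2%), 94 with the replicate number as a block, 46 when the interquartile range entered as a covariate and 689 by the rank statistic. It ran from 70 to 232 when single arrays were left out, with 87, 86 and 70 without Dp1Yey replicates 1, 2 and 3 and 77 without control replicate 4. The Kcne2 difference ran from -0.61 to -0.39 when single arrays were left out, and passed without control replicate 3 (-0.61). The Clic6 difference ran from -0.69 to -0.20 and passed in none of these fits, the value nearest 0 being that without control replicate 1. At equal plexus score the Clic6 difference ran from 0.40 to 0.54, and passed without control replicate 3 (0.53). The Kcne2 difference at equal score ran from -0.28 to -0.11 and passed in none. On the linear scale, a choice made after seeing the data, the Clic6 difference at equal score was 16.0 units (95% CI -30.8 to 62.9), an interval that holds 0, and that of Kcne2 was -8.25 (-19.9 to 3.36). The 7 genes in 2 copies kept their sign in all 126 fits and changed sides of the threshold in 4, to called: Aqp1, Slc4a5 and Folr1 without control replicate 3, and Ttr with the replicate block (-1.57, adjusted p = 0.026). When single arrays were left out, Otx2 ran from -0.73 to -0.36 and Ttr from -2.01 to -1.25, with intervals that held 0 in 6 of 10 fits each (without Dp1Yey replicates 1, 2 or 3 or control replicates 1, 4 or 5), and those of the other 5 genes held 0 in none.

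The replicate numbers were not taken to pair the mice: deviations of same-numbered arrays correlated at 0.062, 0.0075, 0.040, 0.22 and -0.33. With the replicate block the Kcne2 difference was -0.50 (adjusted p = 0.0538) and that of Clic6 -0.46 (adjusted p = 0.3), and at equal score they were -0.21 and 0.51. With 5 arrays a group, and Kcne2 near background, small differences were not resolved.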
